A study of Mus musculus with 12 samples.

Results

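The replication inhibitor Geminin, its partner Cdt1 and 8 genes for parts of the ubiquitin ligases that remove these proteins were followed across 12 arrays of mouse embryoid bodies. The 10 genes were Gmnn, Cdt1, Skp1, Skp2, Cul4a, Cul4b, Ddb1, Dtl, Cdc20 and Fzr1, out of 19938 genes with a probe set annotated to 1 gene alone. Each of the 10 had exactly 1 such probe set, and all 10 were among the 15950 genes bright enough to be tested. Embryoid bodies are clumps of differentiating embryonic stem (ES) cells. They were grown from A2lox ES cells of 129P2/OlaHsd background, in which doxycycline (dox) switches on an inserted transgene.

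The groups were built on 2 such lines, both treated at 0.5 µg/ml. In the knockdown line dox switched on microRNAs directed at the Gmnn transcript. It was given from day 0 and the embryoid bodies were taken on day 4 (3 dox arrays and 3 control arrays). In the overexpression line dox switched on Geminin from day 3. Embryoid bodies of that line were taken on day 5 for replicates 1 and 2 and on day 4 for replicate 3, with a dox array and a control array in each. The control arrays came from the same transgenic lines without dox, so both lines carry their transgene in every group. Stem cells had been grown on irradiated mouse embryonic fibroblasts, and the feeders were removed by subtraction before differentiation, so some may remain. No label states that replicates are separate cultures. P-values therefore measure the spread between these arrays, which may be technical.

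Before DNA replication, Cdt1 loads the MCM helicase onto origins, and Geminin binds Cdt1 and blocks this step until the cell has divided. Both proteins are controlled largely by destruction. The anaphase-promoting complex (APC/C), switched on by Cdc20 and then by Fzr1, marks Geminin for the proteasome from mitosis into G1. Cdt1 is destroyed in S phase through the cullin 4 ligase with the receptor Dtl, also named Cdt2, and through the Skp1-Cul1-F-box (SCF) ligase with Skp2. Arrays read transcripts, so none of the values below is a protein level. Geminin also binds chromatin regulators and is studied in ES cells for its part in leaving pluripotency.

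Upstream sequence was available from RefSeq (GRCm38.p6) for 9 of the 10 genes, and Gmnn was the one without an entry. The 250 bases before the annotated start are shown for Cdt1, Skp1 and Cdc20, because these 3 and Gmnn were the genes whose level went opposite ways with dox in the 2 lines at every replicate number. Each runs 5′ to 3′ on the strand of its gene. Capitals mark TTTGAA, the core of the cell cycle homology region (CHR) found in many mitotic promoters, and CCAAT, the NF-Y box, each searched on both strands.
Cdt1, chr8:122567765-122568014, plus strand: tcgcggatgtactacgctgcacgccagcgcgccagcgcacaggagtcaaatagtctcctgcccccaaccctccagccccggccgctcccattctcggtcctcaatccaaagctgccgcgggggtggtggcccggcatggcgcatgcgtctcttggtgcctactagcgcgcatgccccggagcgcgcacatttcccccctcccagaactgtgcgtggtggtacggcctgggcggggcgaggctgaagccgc
Skp1, chr11:52231745-52231994, plus strand: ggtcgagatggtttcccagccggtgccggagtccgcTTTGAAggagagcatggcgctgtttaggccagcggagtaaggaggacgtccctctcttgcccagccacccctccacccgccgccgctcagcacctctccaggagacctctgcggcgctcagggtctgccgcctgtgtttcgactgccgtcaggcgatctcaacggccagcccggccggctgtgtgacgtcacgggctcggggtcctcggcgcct
Cdc20, chr4:118437344-118437593, minus strand: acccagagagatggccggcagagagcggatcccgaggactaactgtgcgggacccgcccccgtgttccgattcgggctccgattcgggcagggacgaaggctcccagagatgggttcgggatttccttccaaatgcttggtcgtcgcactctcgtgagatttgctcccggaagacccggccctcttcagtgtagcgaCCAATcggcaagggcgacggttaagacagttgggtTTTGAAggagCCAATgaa
Another motif, the E2F form TTTNNCGC, was searched too and is absent from these windows. In Cdc20 the TTTGAA begins 18 bases before the start and CCAAT boxes begin 53 and 8 bases before it, with no overlap between them. In Skp1 a single TTTGAA begins 214 bases before the start. The Cdt1 window holds none of the 3 motifs. Over the 9 genes, the E2F form was in 1 window (Dtl), TTTGAA in 3 (Cdc20, Skp1, Skp2) and CCAAT in 5 (Dtl, Cdc20, Fzr1, Skp2, Cul4b). Skp2 has 2 annotated starts, and its matches are all at the first, with 0 of the 3 motifs in the window of the other. Of 27025 mouse promoter windows of this length, 4.39% hold the E2F form, 16.3% TTTGAA and 34.5% CCAAT. A match describes letters and is no evidence of binding.

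Levels are log2(intensity + 1) after quantile normalization, so a difference of 1 is a 2-fold change. They can be compared between arrays for 1 gene and not between genes. Over all genes tested, dox called 1 gene in each line at a limma adjusted p under 0.05 (0.00627% of genes in each), and it was the same gene in both, Hprt, which encodes a purine salvage enzyme. Its log2 difference was 3.81 ± 0.33 (SE) in the knockdown line and 3.44 ± 0.33 (SE) in the overexpression line (limma adjusted p = 0.00387 and 0.0105), and fits to the arrays of 1 line alone called 0 genes in either. None of the 10 genes was called in either line. At an unadjusted limma p under 0.05 there were 1 of 10 in the knockdown line (Gmnn), where 3.76% of all genes passed, and 2 of 10 in the overexpression line (Gmnn and Skp1), where 0.934% passed.

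Gmnn, the gene the transgenes target, differed between dox and control in the labelled direction on every array. Its deposited intensity in the knockdown line was 789, 838 and 798 in replicates 1 to 3 with dox, against 1254, 1158 and 1056 without. On the log2 scale these were 9.66, 9.74 and 9.63 with dox and 10.33, 10.15 and 10.05 in controls. In the overexpression line the day 5 intensities were 2613 and 1881 with dox, against 1249 and 1151 in controls, and the day 4 pair read 2090 with dox and 1289 without. The log2 levels were 11.38 and 10.83 with dox on day 5 and 10.29 and 10.15 in the controls, and 11.04 with dox and 10.35 without on day 4. The dox and control arrays did not overlap in either line. By replicate number, dox minus control was -0.67, -0.40 and -0.42 in the knockdown line and 1.08, 0.68 and 0.69 in the overexpression line.

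The fitted differences were -0.50 ± 0.14 (SE, 95% interval -0.80 to -0.19) with knockdown and 0.82 ± 0.14 (0.51 to 1.12) with overexpression. As folds these are 1.41-fold lower and 1.76-fold higher. Unadjusted limma p-values were 0.00428 and 1.16e-04, ranks 27 and 2 among all genes tested, while adjusted p-values were 0.965 and 0.922. Exact two-sided permutation over the arrays of a line gave p = 0.1 for knockdown and 0.167 for overexpression, the smallest these designs allow. From high to low, the group means were 11.10 ± 0.38 (SD, n = 2) for overexpression dox on day 5, 11.04 for the day 4 dox array, 10.35 for the day 4 control array, 10.22 ± 0.10 (n = 2) for day 5 controls, 10.18 ± 0.14 (n = 3) for knockdown controls and 9.68 ± 0.06 (n = 3) for knockdown dox. The first 2 groups overlap, as do the day 5 and knockdown controls, and the single day 4 control array lies 0.13 above the day 5 control mean. No source states whether this probe set (10408321) also reads the transgene.

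**Figure D1:**
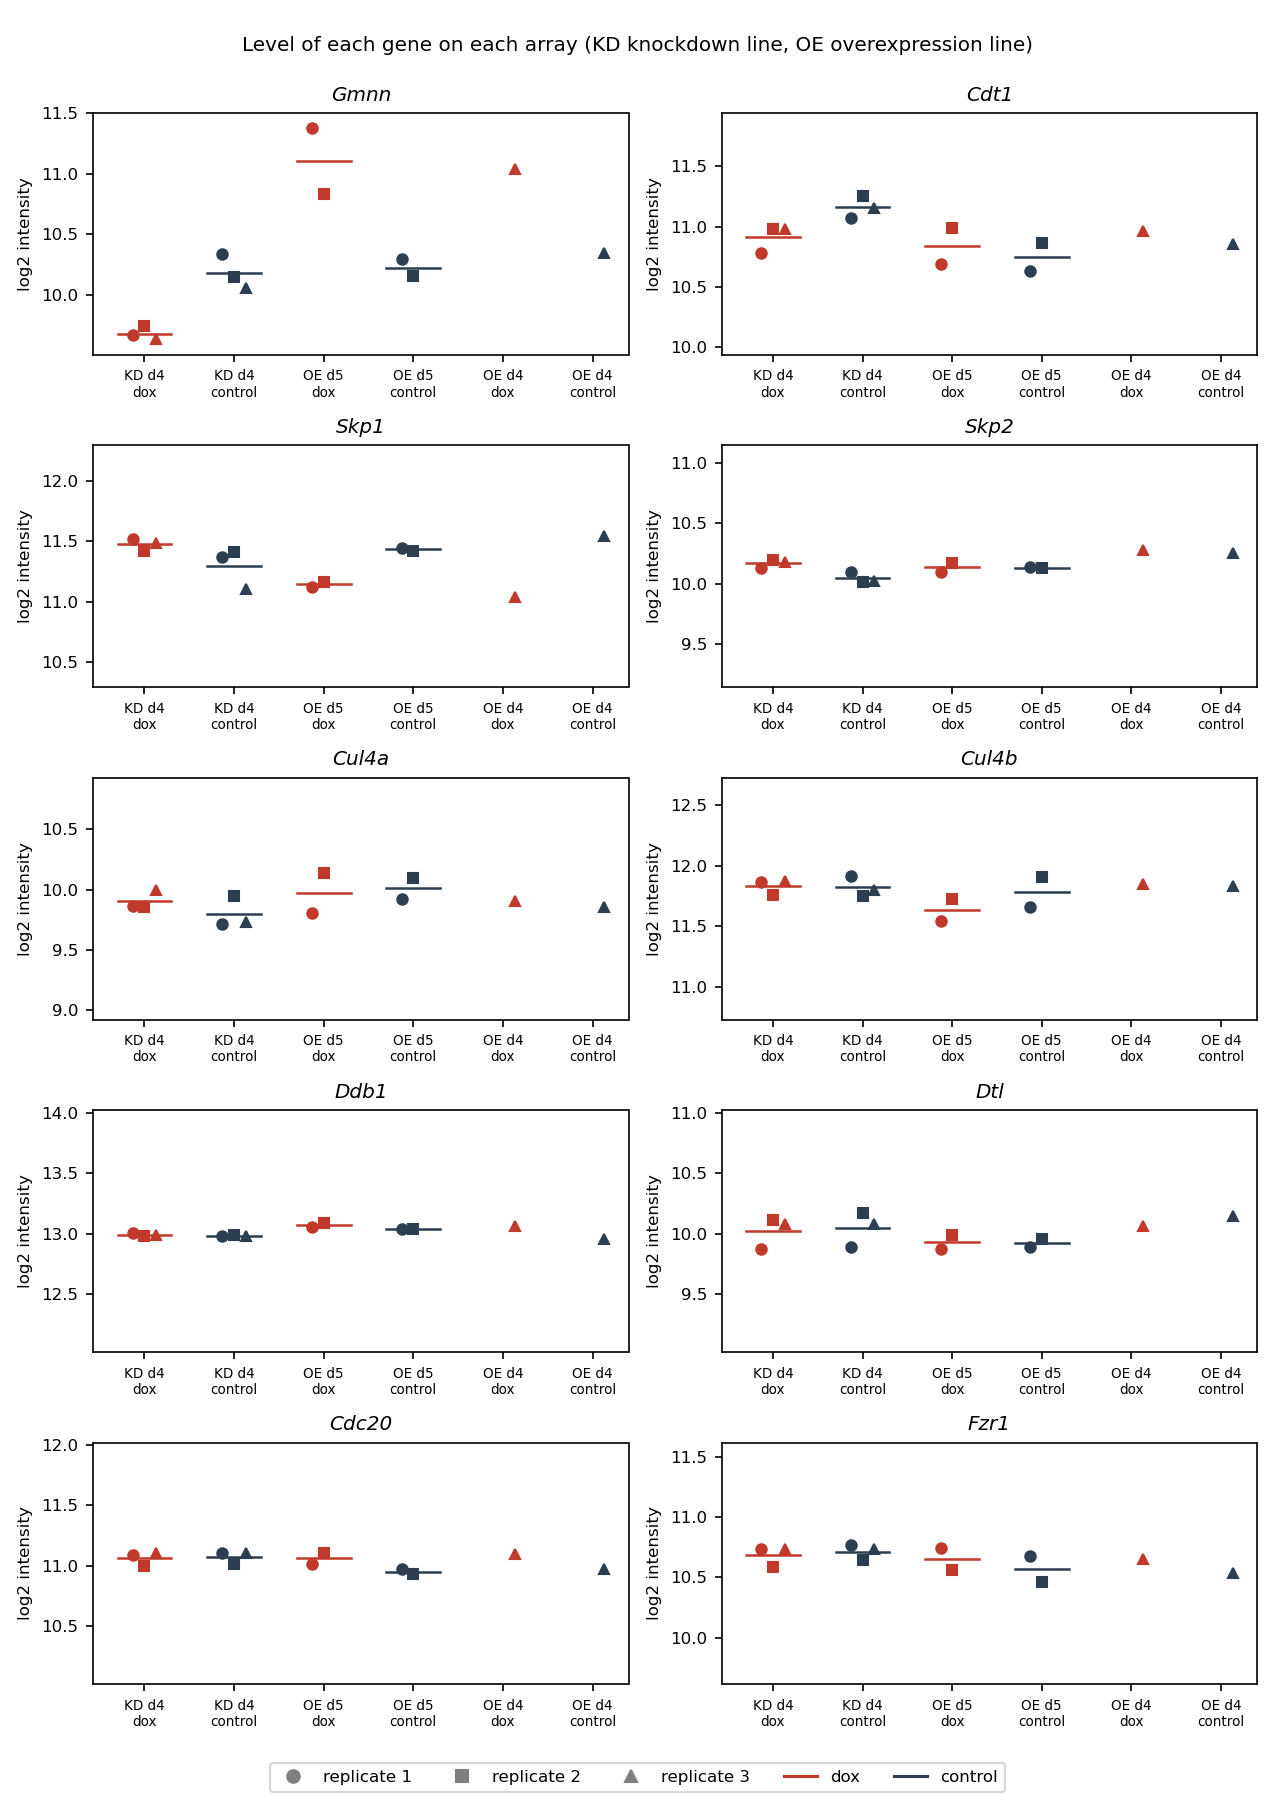
Log2 intensity of each gene (vertical axis, every panel spanning 2 log2 units) on each of the 12 arrays, by line, day and treatment, with the group mean as a line where a group has more than 1 array. Gmnn sits between 9.63 and 9.74 with knockdown dox and between 10.83 and 11.38 with overexpression dox, while the other genes stay within narrower bands.

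Cdt1, the licensing factor that Geminin binds, was lower with dox in the knockdown line by a margin that did not pass the test. It read 10.79, 10.98 and 10.98 with dox, against 11.07, 11.25 and 11.16 in controls, and the groups did not overlap. The difference was -0.24 ± 0.11 (SE, 95% interval -0.49 to 0.00, limma adjusted p = 0.965), or -0.29, -0.27 and -0.18 by replicate number. A replicate block, for pairs that no label states, gave an interval of -0.38 to -0.10 (limma adjusted p = 0.287). With array medians aligned in place of quantile normalization it was -0.12 and the groups overlapped. With overexpression Cdt1 read 10.69 and 10.99 with dox on day 5, against 10.63 and 10.86 in controls, and 10.97 with dox against 10.85 without on day 4. All 3 differences were above 0 (0.06, 0.13 and 0.11), but the groups overlapped and the fit gave 0.10 ± 0.11 (limma adjusted p = 1.00). That value ran from 0.016 without the day 5 dox array of replicate 2 to 0.19 without the day 5 dox array of replicate 1, and in this last case the groups did not overlap. It was 0.035 without the day 5 control array of replicate 1 and 0.17 without that of replicate 2.

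The order of Cdt1 levels put the knockdown controls highest at 11.16 ± 0.09 (SD, n = 3), apart from every other group. The remaining 5 groups, from 10.97 for the day 4 overexpression dox array to 10.75 ± 0.17 (n = 2) for the day 5 controls, each overlapped the next. Between lines on day 4 the fitted baseline difference, knockdown minus overexpression, was 0.30 ± 0.14 (SE, limma adjusted p = 0.432), and it rests on 1 overexpression pair.

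Skp1, the adaptor that joins F-box proteins to Cul1 in SCF ligases, had the largest difference among the 8 ligase genes. In the overexpression line it read 11.12 and 11.17 with dox on day 5, against 11.44 and 11.42 in controls, and 11.04 with dox against 11.55 without on day 4. All 3 dox arrays lay below all 3 controls. The fit gave -0.36 ± 0.10 (SE, 95% interval -0.58 to -0.14), a 1.28-fold lower level with limma adjusted p = 1.00, and rank 8 by p among all genes tested. The exact permutation p was 0.167, the smallest possible. With estimated array weights, which gave the day 4 pair a weight of 5.57 each against 0.412 to 1.23 for other arrays, the difference was -0.46 with adjusted p = 0.0186.

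In the knockdown line Skp1 lay the other way, at 11.52, 11.42 and 11.48 with dox against 11.37, 11.41 and 11.10 in controls. The groups did not overlap, yet the margin in replicate 2 was only 0.01, against 0.15 and 0.38 in replicates 1 and 3. The fitted difference was 0.18 ± 0.10 (SE, 95% interval -0.04 to 0.40, limma adjusted p = 0.965), and 0.09 without the control array of replicate 3. From high to low, Skp1 ran 11.55 (day 4 overexpression control), 11.47 ± 0.05 (SD, knockdown dox, n = 3), 11.43 ± 0.01 (day 5 control, n = 2), 11.29 ± 0.17 (knockdown control, n = 3), 11.14 ± 0.03 (day 5 dox, n = 2) and 11.04 (day 4 dox). The knockdown dox and day 5 control groups overlap, as do the knockdown control and day 5 dox groups.

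Skp2, the F-box protein that picks Cdt1 and the kinase inhibitor Cdkn1b as SCF substrates, read 10.12, 10.20 and 10.18 with dox in the knockdown line, against 10.09, 10.01 and 10.02 in controls. These groups did not overlap, with a fitted difference of 0.12 ± 0.07 (SE, limma adjusted p = 0.965). In the overexpression line the values were 10.10 and 10.17 with dox on day 5 against 10.13 and 10.13 in controls, and 10.27 with dox against 10.25 without on day 4, a fitted difference of 0.01 ± 0.07. Skp2 was the only one of the 10 with an unadjusted p under 0.05 between the lines on day 4, at -0.22 ± 0.09 (knockdown minus overexpression, limma adjusted p = 0.397, with 11.6% of all genes under 0.05 in that comparison). Both overexpression arrays of day 4 stood above all 6 knockdown arrays.

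The cullin 4 ligase that destroys Cdt1 in S phase is built from a scaffold (Cul4a or Cul4b), the adaptor Ddb1 and the receptor Dtl, which recognises substrates held on PCNA. Ddb1 varied least of the 10 over all arrays, within 0.13. It read 13.01, 12.98 and 12.99 with knockdown dox against 12.98, 12.99 and 12.98 in controls. With overexpression dox it read 13.05 and 13.09 on day 5 against 13.04 and 13.04, and 13.06 against 12.96 on day 4. These overexpression groups did not overlap, but the fitted difference was 0.06 ± 0.07 (SE), or 0.032 without either day 4 array, and they overlapped in the intensities as deposited and with array medians aligned.

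Dtl overlapped between dox and control in both lines. It read 9.87, 10.12 and 10.08 with knockdown dox, against 9.89, 10.17 and 10.08 in controls, and its fitted differences were -0.02 ± 0.10 in each line (95% interval -0.25 to 0.20 for knockdown and -0.25 to 0.21 for overexpression). Its overexpression values were 9.88 and 9.99 with dox on day 5 against 9.89 and 9.96 in controls, and 10.07 with dox against 10.15 without on day 4. The 4 day 5 arrays were thus below both day 4 arrays of that line, by a fitted -0.18 ± 0.11 (SE, limma adjusted p = 0.506). Day cannot be told apart from replicate 3 there. In the knockdown line replicate 1 was the lowest in both treatments.

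Cul4a read 9.87, 9.86 and 10.00 with knockdown dox against 9.71, 9.94 and 9.73 in controls, and the groups overlapped (0.11 ± 0.11 SE, or 0.065 without the dox array of replicate 3 and 0.18 without the control array of replicate 2). With overexpression its values were 9.81 and 10.14 with dox on day 5 against 9.92 and 10.10 in controls, and 9.91 against 9.86 on day 4 (-0.01 ± 0.11). The gap between the day 5 dox arrays was wider than any dox difference of the gene. Cul4b, the X-linked scaffold, read 11.87, 11.76 and 11.87 with knockdown dox against 11.91, 11.75 and 11.80 in controls (0.01 ± 0.10). It read 11.54 and 11.73 with overexpression dox on day 5 against 11.66 and 11.90, and 11.85 against 11.83 on day 4 (-0.09 ± 0.10). Without the day 5 control array of replicate 2 that value was -0.0055, and without the day 5 control array of replicate 1 it was -0.15. Neither scaffold separated dox from control arrays in either line.

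Of the APC/C activators that lead to Geminin destruction, Cdc20 acts in early mitosis and Fzr1, also named Cdh1, from late mitosis into G1. Cdc20 read 11.02 and 11.10 with overexpression dox on day 5, against 10.97 and 10.93 in controls, and 11.10 with dox against 10.97 without on day 4. These groups did not overlap, though they did with array medians aligned, and the difference was 0.11 ± 0.08 (SE, limma adjusted p = 1.00). In the knockdown line it read 11.09, 11.00 and 11.10 with dox against 11.10, 11.01 and 11.11 in controls. The 3 differences there were all below 0 but only -0.02, -0.01 and -0.01, and with array medians aligned the fitted value was 0.10 in place of -0.01.

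Fzr1 read 10.75 and 10.56 with overexpression dox on day 5, against 10.67 and 10.46 in controls, and 10.65 with dox against 10.54 without on day 4. Each of the 3 differences was above 0 (0.07, 0.10 and 0.12), but replicates of the same group lay further apart than that and the groups overlapped (0.09 ± 0.09 SE, limma adjusted p = 1.00). Leaving out 1 array moved the fitted value between 0.038 (without the day 5 control of replicate 2) and 0.16 (without that of replicate 1). With knockdown it read 10.73, 10.58 and 10.74 with dox against 10.77, 10.64 and 10.73 in controls (-0.03 ± 0.09). Among the 6 genes whose knockdown groups overlapped, the 95% intervals of the fitted differences ran from -0.25 at the lowest (Dtl) to 0.36 at the highest (Cul4a), which is the size of difference these arrays leave unresolved.

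**Figure D2:**
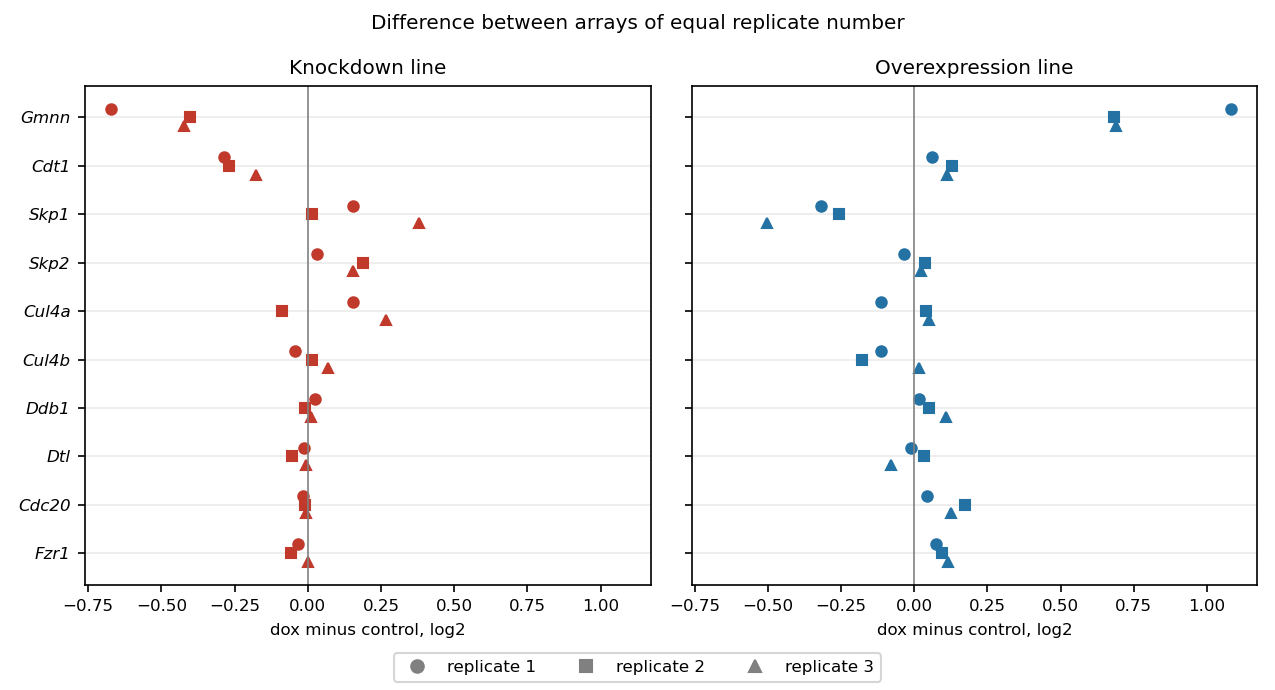
Dox minus control in log2 units (horizontal axis) for arrays of equal replicate number, with 1 point per replicate, in the knockdown line (left) and the overexpression line (right). Gmnn lies left of 0 in the knockdown line (-0.67 to -0.40) and right of 0 in the overexpression line (0.68 to 1.08), and Skp1 lies on the opposite sides.

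In the knockdown line 4 of the 10 genes had dox and control arrays that did not overlap, Gmnn and Cdt1 lower with dox and Skp1 and Skp2 higher, where 8.22% of all genes tested did not overlap (3.25% lower and 4.97% higher). The overexpression line also had 4 of 10, Gmnn, Cdc20 and Ddb1 higher with dox and Skp1 lower, against 3.79% of all genes (1.94% higher and 1.84% lower). Both counts depend on the scaling. In the intensities as deposited they were 3 and 3 (Skp1 overlapped in the knockdown line and Ddb1 in the overexpression line), and with array medians aligned they were 2 and 2, Gmnn and Skp2 in the knockdown line and Gmnn and Skp1 in the overexpression line. Without the knockdown control array of replicate 2 the count in that line was 7, though separation is easier with fewer arrays. The shares over all genes were counted for the main setting only, so the counts under other settings have none beside them. Gmnn, in both counts, is the gene the transgenes target per the labels.

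The interaction in the fit asks whether dox acted differently in the 2 lines. Dox was given from day 0 in the knockdown line and from day 3 in the overexpression line. Line therefore cannot be told apart from length of dox treatment here. For Gmnn the difference of effects, knockdown minus overexpression, was -1.32 ± 0.19 (SE, limma adjusted p = 0.614). For Skp1 it was 0.54 ± 0.14 (limma adjusted p = 1.00) and for Cdt1 -0.34 ± 0.16 (limma adjusted p = 1.00). No gene was called for this interaction by limma over all genes, where 2.13% had an unadjusted p under 0.05, 2 of the 10 genes here among them. At every replicate number, 4 of the 10 went opposite ways in the lines (Gmnn, Cdt1 and Cdc20 lower with knockdown and higher with overexpression, Skp1 the reverse), against 4.86% of all genes (2.46% in the first sense and 2.39% in the reverse). That count was 2 as deposited (Gmnn and Cdt1) and 1 with array medians aligned (Gmnn), with no share over all genes counted for these settings.

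**Figure D3:**
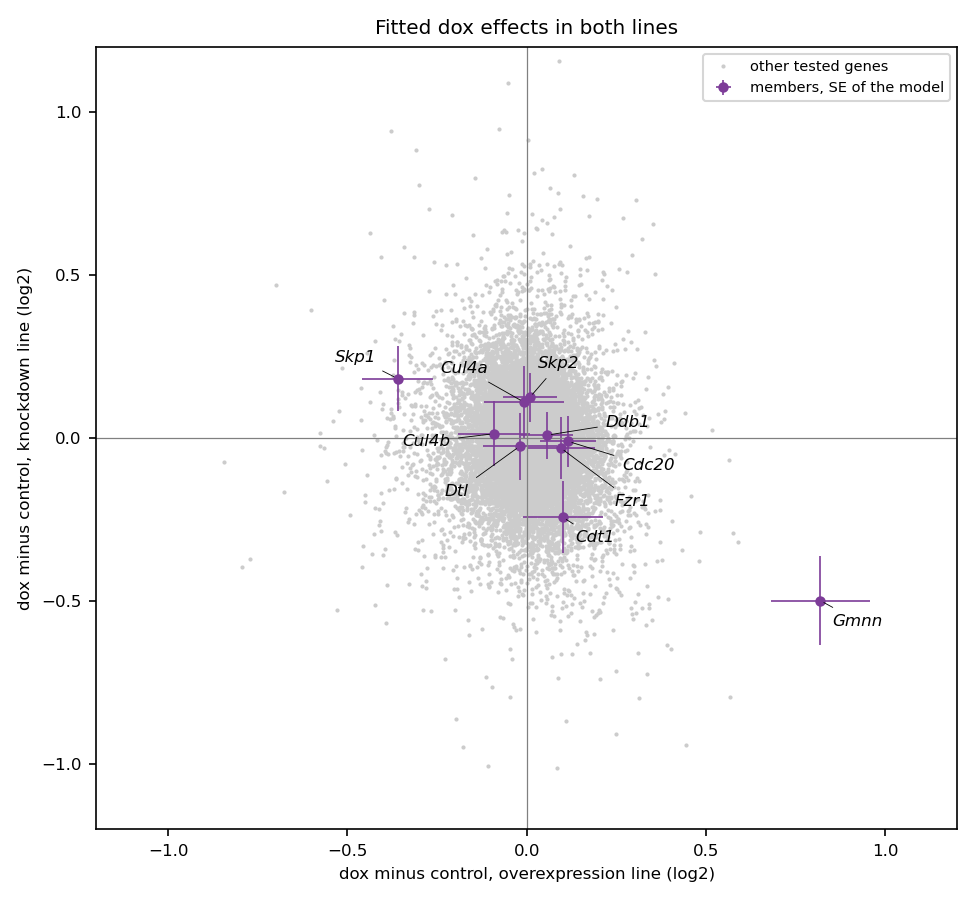
Fitted dox effect in the overexpression line (horizontal axis) against that in the knockdown line (vertical axis), both in log2 units, for the 10 genes (purple, bars are SE) and the other genes tested (grey), with 2 genes outside the axes. Gmnn (0.82 and -0.50) lies apart at the lower right, Skp1 (-0.36 and 0.18) at the upper left, and the other 8 within the cloud.

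Markers of other cell types are given beside these values, with 0 called for dox in either line and summed ranges that overlap between dox and control arrays of the knockdown line. Of all genes tested, 8398 were higher and 7552 lower with knockdown dox. By fitted difference, all 9 measured primitive streak markers were higher with dox (median 0.68, 0 called). Their summed intensities were 2473 to 7238 with dox against 1405 to 4507 in controls. Not all were higher at every replicate number: Fgf8 was at -0.12 in replicate 3, and Mesp1 at -0.24 and Gsc at -0.01 in replicate 2. Markers named in this paragraph for their signs at single replicate numbers were named after their values were seen. Evx1, a streak homeobox gene, had 0.82 ± 0.33 (SE, limma adjusted p = 0.965). All 9 visceral endoderm markers tested were lower by fitted difference (summed over 10 genes, 2521 to 7857 with dox against 3126 to 9811). Of these, only Afp, Cubn, Sox7 and Gata4 were lower at every replicate number. Ttr, Apoa1, Amn, Gata6 and Sox17 were not. Also lower by fitted difference were 8 of 10 pluripotency markers (32161 to 37358 against 35567 to 39904), the lowest being Zfp42 at -0.80 ± 0.23 (limma adjusted p = 0.965). Of these 8, only Zfp42, Esrrb and Dppa5a were lower at every replicate number. The 2 that were higher, Nanog and Tdgf1, were named after their values were seen. They were higher at every replicate number (Nanog 0.19, 0.30 and 0.25, Tdgf1 0.13, 0.16 and 0.11). Feeder fibroblast markers summed to 1457 to 1618 with dox and 1506 to 1904 in controls. The feeder markers Postn, Lum and Fap and the endoderm marker Apob lay below the intensity filter. In the overexpression line the 10 pluripotency markers were all higher with dox (median 0.12, 0 called), where 9042 of all genes tested were higher and 6908 lower. Their sums were 25029 to 26806 against 22140 to 26426 on day 5 and 30670 against 29635 on day 4. Not all were higher at every replicate number: Pou5f1, Nanog, Tdgf1, Dppa5a and Utf1 each fell below 0 at one, Utf1 by -0.36 in replicate 2. With dox there, 5 of 9 streak, 4 of 9 visceral endoderm and 6 of 7 feeder markers were higher. The part of these markers in the differences of the 10 genes was not tested. In bulk RNA, fewer cells of a type and less RNA per cell cannot be told apart.

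By day, none of the 10 genes was called between day 5 and day 4 of the overexpression line (0.558% of all genes were), and none had an unadjusted p under 0.05, where 14.2% of all genes did. The fitted differences ran from -0.18 (Dtl) to 0.11 (Cul4a, 0.11 ± 0.12 SE). Beside them, 20 of 22 origin licensing genes were lower on day 5 (median -0.19, 0 called), against a median of 0.00 over all genes. So were 8 of 10 genes in a list of E2F factors and their partners (median -0.25, 0 called). Among list genes, cyclin E1 (Ccne1), an SCF-Skp2 list member, was called at -0.85 ± 0.12 (SE, limma adjusted p = 0.0233), and the pluripotency factor Pou5f1 at -0.59 ± 0.10 (limma adjusted p = 0.0383). Both were named after their values were seen. They rest on 1 day 4 pair, which is also replicate 3, so day cannot be told apart from replicate. With the arrays of this line only, 19 genes were called for day in place of 89. The numbers called for day and line also changed widely without 1 array, as given below. Visceral endoderm markers had a median of 0.71 between the days (7 of 9 higher, 0 called), feeder markers 0.31 (5 of 7 higher, 0 called) and streak markers -0.32 (7 of 9 lower, 0 called). By line on day 4, none of the 10 was called either (0.307% of all genes were). In that comparison all 9 streak markers were lower in the knockdown line (median -1.98), and 2 were called, Evx1 at -2.64 ± 0.41 (limma adjusted p = 0.0321) and Mesp1, a mesoderm factor named after its value was seen, at -1.62 ± 0.20 (limma adjusted p = 0.0171). These line calls rest on the same 1 overexpression pair of day 4. Mesp1 is also dim in the knockdown line. Its knockdown controls read 6.26, 6.22 and 6.07, all below the intensity filter, against 7.68 in the day 4 overexpression control. It was tested because its mean over all arrays passed. The knockdown side of its line difference therefore lies close to the lower limit of the signal. Pluripotency markers had a median of 0.70 (8 of 10 higher, 0 called). The part of these markers in the day and line values of Cdt1, Skp2, Dtl and Cul4a was not tested.

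The genes around this control were grouped in 8 lists with 93 genes tested. Limma called 0 of them for dox in either line. At an unadjusted p under 0.05 there were 3 of 93 in the knockdown line (3.23%) and 1 of 93 in the overexpression line (1.08%), near the 3.76% and 0.934% over all genes. Medians of the fitted differences stood close to that of all genes (0.01 in each line) for most lists. For the 22 origin licensing genes they were 0.04 with knockdown and 0.03 with overexpression. The loading factor Cdc6 had 0.18 ± 0.12 and 0.06 ± 0.12 (SE, knockdown then overexpression), the origin recognition subunit Orc1 -0.02 ± 0.10 and 0.03 ± 0.10, and the helicase subunits Mcm2 0.04 ± 0.09 and 0.11 ± 0.09 and Mcm7 0.05 ± 0.08 and 0.02 ± 0.08. None of the 22 passed the test in either direction.

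The 14 APC/C core subunits had medians of 0.05 with knockdown and 0.01 with overexpression, and the 7 APC/C inhibitors and E2 enzymes 0.03 and 0.04. Fbxo5, or Emi1, which holds the APC/C off in S phase, stood at 0.09 ± 0.11 and -0.02 ± 0.11, and the E2 enzyme Ube2c at -0.08 ± 0.13 and 0.09 ± 0.13. Other substrates of the APC/C (9 tested) had medians of 0.04 and -0.01, with the mitotic kinase Plk1 at 0.09 ± 0.11 and -0.02 ± 0.11. Ccnb1 is not analysed here. No member of these 3 lists passed the test.

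The 10 SCF-Skp2 partners and substrates had medians of 0.05 and 0.00. The scaffold Cul1 stood at 0.10 ± 0.11 and 0.02 ± 0.11, the RING protein Rbx1 at 0.01 ± 0.25 and -0.09 ± 0.25, and the cofactor Cks1b at 0.10 ± 0.18 and 0.02 ± 0.18. The substrate Cdkn1b, or p27, stood at -0.10 ± 0.15 and -0.14 ± 0.15, and cyclin A2 (Ccna2) at 0.06 ± 0.08 and -0.02 ± 0.08. Cyclin E2 (Ccne2), which drives entry into S phase, was the one with an unadjusted p under 0.05. It was 0.41, 0.45 and 0.47 higher with knockdown dox at the 3 replicate numbers (0.44 ± 0.16 SE, limma adjusted p = 0.965) and -0.42, -0.12 and -0.14 with overexpression dox (-0.22 ± 0.16). Its dox and control arrays overlapped in both lines.

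The 16 cullin 4-Cdt2 partners and substrates tested had medians of 0.05 and 0.00. The sliding clamp Pcna, on which Cdt1 is recognised, stood at 0.05 ± 0.08 and 0.11 ± 0.08, the substrate Kmt5a, a histone methyltransferase, at 0.05 ± 0.08 and 0.07 ± 0.08, and the cullin exchange factor Cand1 at 0.12 ± 0.09 and 0.04 ± 0.09. Cdkn1a and Ube2m are not analysed here. The list of E2F factors, which regulate S phase genes, and their partners Tfdp1 and Tfdp2 held 10 genes in all. Its medians were 0.12 with knockdown and -0.07 with overexpression. E2f3 was the one with an unadjusted p under 0.05 and was above its controls at every replicate number with knockdown dox (0.27 ± 0.11 SE, limma adjusted p = 0.965), and E2f1 was below them (-0.22 ± 0.11, limma adjusted p = 0.965). With overexpression dox both were below their controls at every replicate number, E2f3 at -0.10 ± 0.11 and E2f1 at -0.15 ± 0.11. The dox and control arrays of E2f3 overlapped in both lines.

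Of the 6 Geminin relatives and binding partners, Gmnc, a coiled-coil relative of Geminin needed for multiciliated cells, was the one with an unadjusted p under 0.05 in the overexpression line. Dox minus control was -0.39, -0.35 and -0.43 at the 3 replicate numbers (-0.39 ± 0.13 SE, limma adjusted p = 1.00). This gene is dim: its overexpression dox arrays read 6.25, 6.44 and 6.37, all below the filter level of 6.46, against 6.64, 6.79 and 6.80 in controls. It was tested because its mean over 12 arrays passed, so the difference lies close to the lower limit of the signal. With knockdown dox it stood at -0.04, -0.13 and 0.36 (0.06 ± 0.13). The other relative, Mcidas, stood at 0.06 ± 0.14 and 0.15 ± 0.14, and the chromatin remodeller Smarca4, or Brg1, at 0.11 ± 0.10 and 0.01 ± 0.10. Tbpl1, a relative of the TATA-binding protein, stood at 0.25 ± 0.10 with knockdown dox (limma adjusted p = 0.965) and -0.09 ± 0.10 with overexpression dox.

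**Figure D4:**
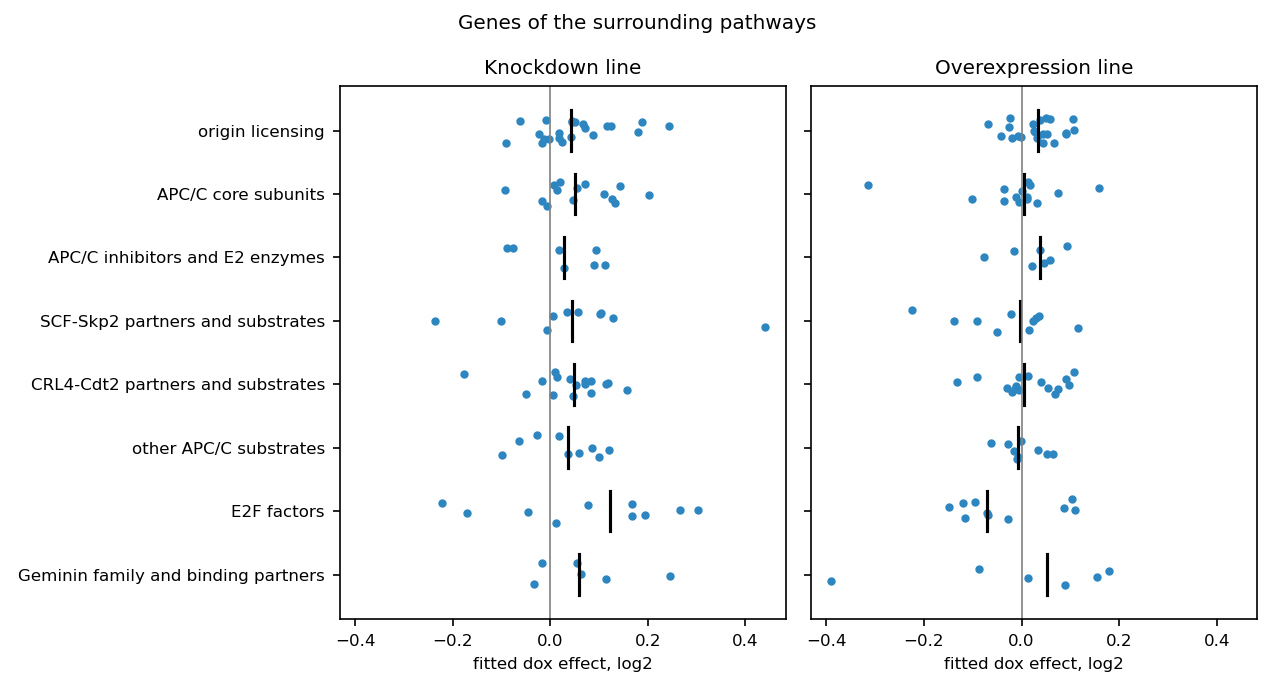
Fitted dox effect in log2 units (horizontal axis) of each tested gene in 8 lists around Geminin and Cdt1 control, in the knockdown line (left) and the overexpression line (right), with list medians as black bars. The medians lie between 0.03 and 0.12 with knockdown and between -0.07 and 0.05 with overexpression, and 0 of the genes were called.

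Across the 12 arrays the levels of the 10 genes were compared as a description, since arrays of a line share its baseline and its dox contrast. Gmnn and Skp1 had Pearson r = -0.71, or -0.77 with the mean of each line and day removed. Gmnn and Cdt1 had -0.24, or 0.33 with those means removed. Cdt1 and Dtl had 0.64 and 0.61, and Cdc20 and Fzr1 0.64 and 0.56. These pairs do not stand out, since others had values of similar size. Gmnn and Ddb1 had 0.66 and 0.43, Fzr1 and Cul4a -0.64 and -0.61, and Cdc20 and Ddb1 0.07 and 0.70.

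Other genes were then ranked by r, leaving out predicted, clone-named, olfactory, vomeronasal and small RNA genes. Each r below was picked as among the highest of many over 12 arrays, and none was tested. Among the remaining genes tested, the levels most like those of Gmnn over the 12 arrays belonged to Ifi35 (r = 0.88), Avpr1b (0.86) and Esm1 (0.80). With line and day means removed they were Esm1 (0.92), Serpinb6b (0.90) and Rpl36 (0.89). For Cdt1 they were Dmrtb1, Rlim and Grhl1 (0.93 each), and with means removed Nucb1 (0.95), Klf12 (0.95) and Prkag1 (0.94). For Skp1 they were Ctrc (0.89), Fmo1 (0.88) and Srpr (0.86), and with means removed Tmem255a (0.94), Ctrc (0.91) and Fmo1 (0.90). The names changed with the removal of line and day means for Cdt1 entirely, while Esm1 was in both sets for Gmnn and Ctrc and Fmo1 in both for Skp1.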

How the data were processed

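Per the labels' protocols, 1 µg of total RNA per sample was labelled with biotin as sense-strand target and read on Affymetrix Mouse Gene 1.0 ST arrays. The authors deposited 1 linear intensity per probe set and array, with summarisation and normalization not stated in the labels or headers. Array means were alike but medians spanned 0.324 on the log2 scale, so log2(intensity + 1) values were quantile normalized over 35512 probe sets. The brightest probe set annotated to 1 gene stood for each of 19938 genes, and genes below the 20th percentile (intensity 86.7) were not tested, leaving 15950. One model was fitted to 12 arrays with limma 3.58.1 in R 4.3.3, with a baseline per line and day and a dox effect per line (7 residual degrees of freedom), with Benjamini-Hochberg adjustment over all genes tested. Precision is limited by the number of arrays.

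On simulated arrays of 15950 genes, a 1.5-fold change was called for 23 of 50 genes with knockdown and 21 of 50 with overexpression. A 2-fold change was called for 43 and 41 of 50. Of the unchanged genes, 7 and 9 were called. Changes of 4-fold and 8-fold were planted too, in 50 genes each per line, and nearly all were called. So many calls loosen the adjusted threshold, whereas the real fits called 1 gene per line. Noise was also drawn independently for each array. These shares therefore do not give the power of the real fits. The 10 genes and all lists were chosen with earlier results of these data known. Genes named besides the 10 came from a written rule, except where the text says they were named after their values were seen. The rule took 21 list genes whatever their values (19 analysed here), list genes with an unadjusted p under 0.05 for dox, and Hprt. It also took the 3 genes most correlated with each of Gmnn, Cdt1 and Skp1, with the exclusions stated there. Alternatives covered scaling, pseudocount (32), low-value filter, trend, array weights, subsets of arrays, replicate block and leaving out each array. The replicate block within one line alone, and all alternatives for the counts of genes whose groups did not overlap or went opposite ways, were added after seeing the data.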

Additional observations from a re-analysis of the deposited data

Results flagged for a closer look

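For 4 of the 10 genes, dox minus control had opposite signs in the 2 lines at every replicate number, against 4.86% of all genes tested. The lines also differ in length of dox treatment. The difference of dox effects, knockdown minus overexpression, was -1.32 for Gmnn, the targeted gene, -0.34 for Cdt1, 0.54 for Skp1 and -0.12 for Cdc20. By the limma interaction these had adjusted p = 0.614 for Gmnn and 1.00 for the other 3 genes. For Cdc20 the knockdown differences were -0.02, -0.01 and -0.01, smaller than the spread between replicates, and with array medians aligned its difference of effects was 0.01. With that scaling only Gmnn of the 10 kept opposite signs at all 6 comparisons, and no share over all genes was counted for it.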

How the results depend on the processing

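Gmnn kept its direction in both lines under every alternative, between -0.56 and -0.40 with knockdown and between 0.64 and 0.96 with overexpression. It passed the threshold only with array weights in the overexpression line (0.71, limma adjusted p = 0.00929). That setting called 201 genes there, against 1 without weights, and 2567 against 89 for day and 1170 against 49 for line. With arrays of one line only, 0 genes were called for dox in either line. Leaving out 1 array gave 1 in the knockdown line and 0 to 1 in the overexpression line (0 without any of its arrays but the day 5 control of replicate 2), where day 5 alone also gave 0. For day there were 33 with medians aligned, 27 with no filter, 19 with one line, 178 with a trend and 0 to 148 without 1 array. For line there were 30 as deposited, 29 with no filter and 0 to 80 without 1 array. Genes whose groups did not overlap numbered 2 in each line with medians aligned and 4 to 7 (knockdown) and 4 to 5 (overexpression) without 1 array. Genes opposite in the lines at every number were 2 as deposited, 1 with medians aligned and 4 to 5 without 1 array. For neither count was a share over all genes counted under these settings. Values near 0 reversed, and the cause was not tested. For knockdown these were Ddb1 -0.0057 as deposited, with medians aligned Dtl 0.076, Fzr1 0.081 and Cdc20 0.10, and with array weights Dtl 0.024 and Cul4b -0.0069. Without 1 array Dtl ran from -0.11 to 0.050, Fzr1 from -0.066 to 0.020, Cdc20 from -0.042 to 0.021 and Cul4b from -0.023 to 0.060. For overexpression they were Cul4a 0.0055 as deposited and 0.041 with weights, Skp2 -0.0079 with medians aligned and Dtl 0.011 on day 5 alone. Without 1 array Dtl ran from -0.060 to 0.011, Cul4a from -0.094 to 0.094 and Skp2 from -0.0089 to 0.030. For the difference between lines they were, with medians aligned, Dtl 0.11, Fzr1 0.0084, Cdc20 0.0084 and Ddb1 0.10, and Dtl 0.082 with weights and -0.086 to 0.069 without 1 array. Deviations from group means of equal-numbered arrays correlated at 0.602, 0.438 and 0.051 in the knockdown line and 0.785 on day 5. This establishes no pairs. The 0.051 of replicate 3 is close to values for unequal numbers (0.024 and 0.021). Day 5 groups hold 2 arrays, whose deviations mirror each other, so 0.785 is 1 value and not 2 matches. The higher values of replicates 1 and 2 in the knockdown line are a hint from the data and not the design. A replicate block called 1 gene in each line (0 in the knockdown line with that line's arrays only), gave Gmnn adjusted p = 0.235 and 0.637, and raised genes with an unadjusted p under 0.05 to 1941 and 572, against 599 and 149. No block can be used for day or line.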
